A study of Mus musculus with 15 samples.

Results

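The genes described are the organic ion and ABC drug transporters of the maternal mouse liver, which are the genes whose symbols begin with Slco, Slc22a, Abcb, Abcc or Abcg followed by a number. Slco1b2, Slc22a2, Abcb11, Abcg5 and Abcg8 were left out by the rule, and a gene had to have at least 10 counts in at least 3 of the 15 libraries. Of 60 genes with such symbols, 38 met the count minimum and 22 did not, out of 21702 genes in the table. Among the 22, the kidney anion transporter genes Slc22a6 and Slc22a8 had at most 1 count in any library. All 38 were among the 12172 genes tested. The rule itself uses symbols and this minimum.

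RNA was sequenced from whole liver of wild-type C57BL/6 female mice (C57BL/6N by the study's methods). They were 8 to 14 weeks old by the methods, while the study's reporting summary gives a wider range of ages. All had received an AAV8 virus through the tail vein, the pregnant groups before mating. AAV8-null carries no added gene and was given to non-pregnant (NP) mice and to mice taken at 8 and 16 days post-coitum (dpc). AAV8-p21 carries the cell cycle inhibitor p21 (Cdkn1a) under the thyroxine-binding globulin (TBG) promoter, which acts in hepatocytes, and was given to mice taken at 8 and 16 dpc. Each of the 5 groups held 3 mice. There was no group without virus and no NP group with AAV8-p21. The comparisons address how the liver changes with pregnancy, and whether holding back hepatocyte division alters that change.

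Transporters of the SLCO (OATP) and SLC22 families carry organic anions, organic cations, carnitine, hormones and many drugs across the hepatocyte membrane, mostly from the blood into the cell. ABC transporters use ATP to pump conjugates, phospholipids and drugs out, either into bile, as Abcc2, Abcb4 and Abcg2 do, or back across the basolateral membrane into blood, as Abcc3 and Abcc4 do. Some ABCB proteins sit in mitochondria or lysosomes instead of the cell surface and handle heme or peptides.

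The libraries held 12280709 to 17615185 counts. Albumin took 7.90% to 12.9% of the counts in the NP and 8 dpc libraries and 20.5% to 27.8% at 16 dpc, and the TMM factors, which correct for such a shift, were 1.10 to 1.25 in the former and 0.682 to 0.839 in the latter. Levels below are in CPM, counts scaled to a common library size with these factors, and log2 fold changes are therefore relative to the typical gene. Without them the median gene was lower by 0.70 on the log2 scale at 16 dpc than in NP mice with AAV8-null. Cdkn1a was at 347 to 648 CPM with AAV8-p21 at 8 dpc against 16.5 to 33.4 CPM with AAV8-null, and at 815 to 1664 CPM against 59.8 to 127 CPM at 16 dpc, with no overlap at either stage. Kidney markers summed to at most 1.17 CPM in any library and placenta and uterus markers to at most 0.0891 CPM. In 4 of the 5 groups 1 mouse stood apart over all genes (NP mouse 1, mouse 3 of both 8 dpc groups and mouse c of 16 dpc AAV8-p21), with a log CPM correlation of 0.946 to 0.966 with its group mates, which had 0.982 to 0.987 with each other. The summed markers of cholangiocytes were at 18.1 to 27.3 CPM with AAV8-null and 36.9 to 54.3 CPM with AAV8-p21 at 8 dpc, and at 8.75 to 17.6 CPM and 20.2 to 43.7 CPM at 16 dpc, and their part in the results was not tested. In whole liver, fewer cells of a type and less RNA per cell cannot be told apart.

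Levels between genes were compared as CPM per kilobase of exons. Among the 10 highest means over all libraries were those of the organic anion transporter gene Slc22a26 at 60.1, the bile export pump for conjugates Abcc2 (Mrp2) at 50.3, Slc22a18 at 44.0 and the phosphatidylcholine floppase Abcb4 (Mdr2) at 33.9 CPM per kilobase. Abcc3 (Mrp3) at 25.2, Slco2b1 at 23.9, Slc22a30 at 18.6, Slc22a23 at 17.1 and Slc22a5 at 17.1 CPM per kilobase were also among these 10. The order depended on the group, since Abcc3 was at 54.1 CPM per kilobase in NP mice and 3.96 at 16 dpc with AAV8-null, and Slco1a4 at 34.1 and 9.08. Slc22a30, Slc22a23 and Slc22a5, with Slco1a4 next at 17.0, differed by less than the spread between their libraries. The lowest were Slc22a17, Abcc1 (Mrp1) and Abcb1b at 0.117, 0.103 and 0.0797 CPM per kilobase.

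**Figure D1:**
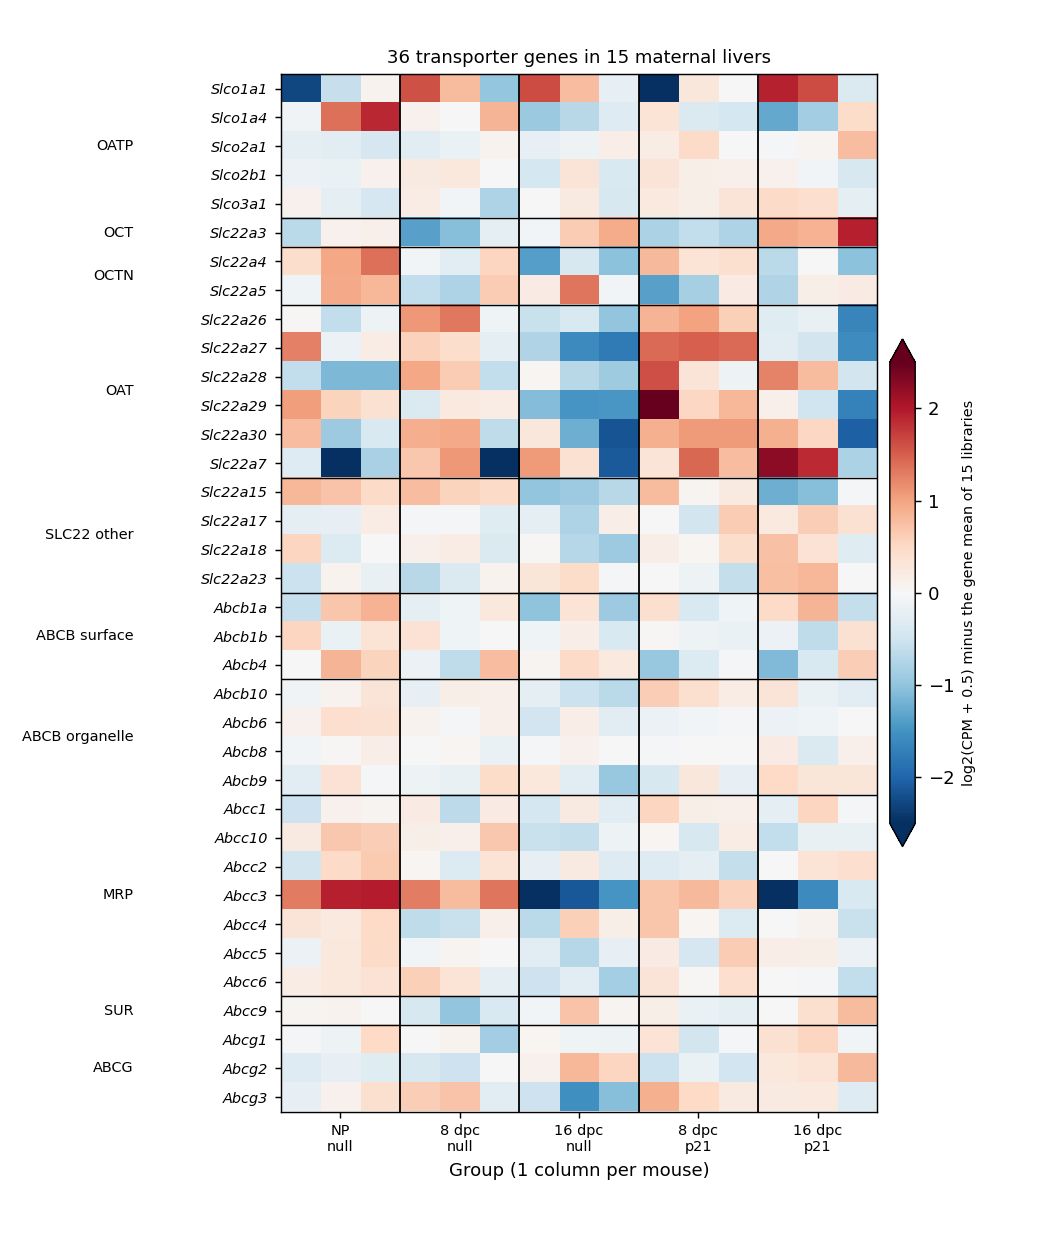
Transporter genes (36 rows, by family) in the 15 libraries (columns, 3 mice per group), coloured by log2(CPM + 0.5) minus the gene's mean over all libraries. Abcc3 was high in all 9 NP and 8 dpc libraries and low at 16 dpc, while the organic anion transporter rows change between mice of a group.

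Of the 38 genes, 11 passed an adjusted p of 0.05 in edgeR's quasi-likelihood test in at least 1 of 7 comparisons, beside 10.1% of all tested genes. Below, passing refers to this test unless another is named, and DESeq2 and limma voom called further genes. In AAV8-null mice, 16 dpc differed from NP in 8 genes, 1 higher and 7 lower, where 6.52% of all tested genes passed (3.71% higher and 2.82% lower). Between 16 and 8 dpc with AAV8-null, 2 genes were higher and 5 lower, where 6.87% of all tested genes passed (3.16% higher and 3.71% lower). Between 16 and 8 dpc with AAV8-p21, 2 were higher and 2 lower, where 3.32% of all tested genes passed (2.09% higher and 1.23% lower). The median log2 fold change of the 38 genes was -0.35 for 16 dpc against NP and -0.26 for 16 against 8 dpc with AAV8-null, beside -0.03 and 0.005 over all tested genes. For 16 against 8 dpc with AAV8-p21 it was 0.01, beside -0.02 over all tested genes, and 21 of the 38 genes were above 0. When edgeR was fitted to the compared groups alone, the calls of Slco1a4, Slc22a27 and Abcc10 for 16 dpc against NP, of Slc22a3, Slc22a26 and Abcg3 for 16 against 8 dpc with AAV8-null, of Abcc3 for 16 against 8 dpc with AAV8-p21 and of Abcg2 in all 3 comparisons were lost, while DESeq2 on the same groups alone made each of them. With total counts alone as the scale, 22 genes passed for 16 dpc against NP and 21 for 16 against 8 dpc with AAV8-null, all of them lower, where 50.5% and 53.5% of all tested genes passed (48.6% and 51.9% lower), so the balance of higher and lower genes holds only relative to the typical gene.

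At 8 dpc none of the 38 genes differed from NP in AAV8-null mice in edgeR's test, where 0% of all tested genes passed. At an unadjusted p under 0.05 there were 4 of the 38 genes, beside 6.6% of all genes. DESeq2 on all libraries also called none, where it called 0.574% of all tested genes. Limma voom with sample weights called 10, of which 8 were lower, where it called 15.2% of all tested genes (7.37% lower).

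**Figure D2:**
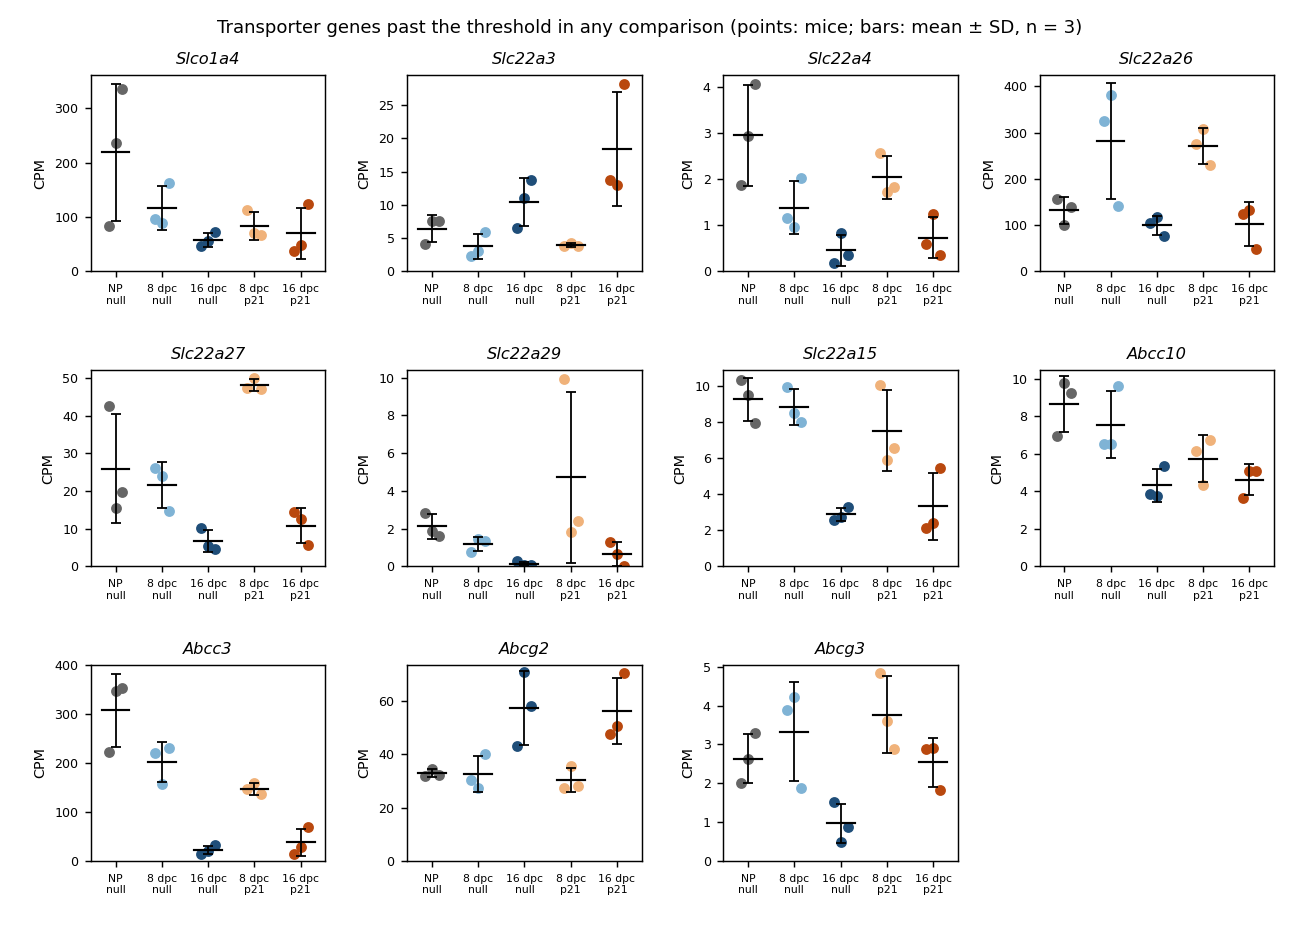
Level in CPM (linear axes from 0) of the 11 genes past the threshold in any comparison, by group. Points are mice and bars the mean and SD of 3 mice; the 16 dpc values of Abcc3 lie below every NP and 8 dpc value.

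Among the OATP genes, Slco1a4, which takes up bile acids and steroid conjugates, was lower at 16 dpc than in NP mice. Its levels were 84.3, 236 and 335 CPM in the NP mice, 96.8, 89.7 and 162 CPM at 8 dpc and 47.2, 55.3 and 72.1 CPM at 16 dpc with AAV8-null. Every 16 dpc mouse lay below every NP mouse, the lowest NP mouse by a small margin, and the log2 fold change was -1.91 ± 0.50 (SE, n = 3 and 3, edgeR adjusted p = 0.0331). The call was lost with NP mouse 2 or 3 or any 16 dpc mouse left out. With AAV8-p21 the levels were 114, 70.1 and 66.5 CPM at 8 dpc and 36.8, 49.0 and 124 CPM at 16 dpc, where the groups overlapped. The other 4 OATP genes did not pass in any comparison. Slco2b1, an uptake transporter also found in the intestine, stayed between 103 and 175 CPM in all 15 libraries. The prostaglandin transporter Slco2a1 had means of 67.8 ± 4.27 CPM in NP mice and 105 ± 34.7 CPM at 16 dpc with AAV8-p21 (SD, n = 3 each). Slco3a1 had means of 2.08 to 2.99 CPM over the groups.

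Slc22a3 (Oct3), a transporter of monoamines and other organic cations, rose between 8 and 16 dpc with both viruses. With AAV8-null it had 4.16, 7.55 and 7.62 CPM in the NP mice, 2.39, 3.04 and 5.88 CPM at 8 dpc and 6.60, 11.1 and 13.7 CPM at 16 dpc. Under AAV8-p21 the levels were 3.80, 4.34 and 3.85 CPM at 8 dpc and 13.8, 13.01 and 28.3 CPM at 16 dpc. The 16 dpc mice lay above the 8 dpc mice of the same virus without overlap. The log2 fold change was 1.47 ± 0.40 with AAV8-null (edgeR adjusted p = 0.0397) and 2.20 ± 0.40 with AAV8-p21 (edgeR adjusted p = 0.00715; SE, n = 3 and 3 each). The first call was lost with total counts as the scale and with 4 of the 6 mice left out in turn (8 dpc mice 1 and 2, 16 dpc mice 2 and 3), and the second held in every alternative run. Summed endothelial markers also lay higher at 16 dpc (337 to 621 CPM) than at 8 dpc (147 to 200.5 CPM) with AAV8-null, where 3 of the 10 genes passed as higher, and with AAV8-p21 (301 to 324 CPM against 192 to 245 CPM), where 1 did. Stellate cell markers summed to 340 to 455 CPM at 16 dpc and 183 to 283 CPM at 8 dpc with AAV8-null, where 1 of 10 passed as higher, and overlapped with AAV8-p21. The part of these cells in the rises of Slc22a3 and Abcg2 was not tested.

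The carnitine transporter Slc22a5 (Octn2) had 43.1, 89.3 and 82.3 CPM in the NP mice, 29.9, 26.97 and 71.9 CPM at 8 dpc and 53.2, 117 and 44.1 CPM at 16 dpc with AAV8-null. The AAV8-p21 mice had 17.7, 26.0 and 53.4 CPM at 8 dpc and 27.3, 51.4 and 53.6 CPM at 16 dpc. The groups overlapped in each comparison, and none passed. Of the 86-base windows of its longest transcript, 16.02% occur in another gene, its close copy Slc22a21. By the study's methods only uniquely mapped reads entered the counts, so reads from such windows may be missing.

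Slc22a4 (Octn1), which carries ergothioneine, was rare and lower at 16 dpc. It had 1.87, 2.92 and 4.06 CPM in the NP mice, 1.16, 0.953 and 2.03 CPM at 8 dpc and 0.178, 0.833 and 0.356 CPM at 16 dpc with AAV8-null. With AAV8-p21 it had 2.57, 1.71 and 1.82 CPM at 8 dpc and 0.596, 1.24 and 0.364 CPM at 16 dpc. The 16 dpc mice lay below the 8 dpc mice of the same virus without overlap, and with AAV8-null also below the NP mice. Neither difference from 8 dpc passed (edgeR adjusted p = 0.108 with AAV8-null and 0.150 with AAV8-p21). The log2 fold change against NP was -2.66 ± 0.55 (SE, n = 3 and 3, edgeR adjusted p = 0.0108), which held with each mouse left out.

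The 6 organic anion transporter genes measured were Slc22a7 (Oat2) and Slc22a26 to Slc22a30, 5 genes close to each other on mouse chromosome 19. All 6 had a log2 fold change below 0 between 8 and 16 dpc with AAV8-null, with a median of -1.59 beside 0.005 over all tested genes, although Slc22a7 was at -0.08 ± 0.96 (SE, n = 3 and 3). Of the 6, 2 passed, both lower, where 3.71% of all tested genes passed as lower. With AAV8-p21 1 of the 6 was above 0 (Slc22a7 at 0.66 ± 0.95, SE, n = 3 and 3), and the median was -1.09 beside -0.02. There 1 of the 6 passed, as lower, where 1.23% of all tested genes did. Between NP and 8 dpc with AAV8-null 4 of the 6 were above 0 (49% of all tested genes). The median was 0.83 beside -0.007 over all tested genes, and none passed. Slc22a26 had 157, 99.6 and 140 CPM in the NP mice, 324, 380 and 142 CPM at 8 dpc and 104, 117 and 77.2 CPM at 16 dpc with AAV8-null. In the AAV8-p21 mice it had 275, 307 and 230 CPM at 8 dpc and 124, 134 and 48.3 CPM at 16 dpc. The 16 dpc mice lay below the 8 dpc mice with both viruses, with log2 fold changes of -1.51 ± 0.38 with AAV8-null (edgeR adjusted p = 0.0319) and -1.41 ± 0.38 with AAV8-p21 (edgeR adjusted p = 0.0603; SE, n = 3 and 3 each). The first was lost with any mouse left out except 8 dpc mouse 3, the lowest of its group. The second was called by DESeq2 on all libraries (adjusted p = 0.00873) and by limma voom (adjusted p = 0.006975).

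Slc22a27 fell between 8 and 16 dpc with both viruses. It had 42.5, 15.6 and 19.7 CPM in the NP mice, 26.1, 23.9 and 14.6 CPM at 8 dpc and 10.2, 5.42 and 4.72 CPM at 16 dpc with AAV8-null. Under AAV8-p21 the levels were 47.3, 49.9 and 47.1 CPM at 8 dpc and 14.4, 12.5 and 5.53 CPM at 16 dpc. The log2 fold change was -1.67 ± 0.42 with AAV8-null (edgeR adjusted p = 0.0299) and -2.15 ± 0.42 with AAV8-p21 (edgeR adjusted p = 0.0107), and that of 16 dpc against NP was -1.94 ± 0.42 (edgeR adjusted p = 0.0139; SE, n = 3 and 3 each). The AAV8-p21 call held with each mouse left out. The AAV8-null calls were lost with 16 dpc mouse 2 or 3 left out, and that against 8 dpc also with 8 dpc mouse 1 or 2 left out.

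Slc22a29 had 2.84, 1.89 and 1.61 CPM in the NP mice, 0.757, 1.43 and 1.35 CPM at 8 dpc and 0.267, 0.0833 and 0.0890 CPM at 16 dpc with AAV8-null. These are 95 counts over the NP mice and 5 counts, 1 to 3 per library, over the 16 dpc mice, a ratio of 14.5 with a 95% interval of 6.00 to 45.7 that covers counting error only. The call (edgeR adjusted p = 0.0385) was lost when any of the 6 mice was left out and in limma voom. With AAV8-p21 Slc22a29 had 9.92, 1.83 and 2.38 CPM at 8 dpc and 1.28, 0.654 and 0 CPM at 16 dpc, the highest value being that of 1 mouse.

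Slc22a30 had 84.5, 26.3 and 38.04 CPM in the NP mice, 92.8, 96.5 and 31.8 CPM at 8 dpc and 60.3, 20.9 and 10.8 CPM at 16 dpc with AAV8-null. The AAV8-p21 mice had 92.7, 104 and 104 CPM at 8 dpc and 91.8, 71.6 and 11.6 CPM at 16 dpc. The groups overlapped in all but the 16 against 8 dpc comparison with AAV8-p21, and none passed. Slc22a28 was below 3 CPM in every library, and 41.6% of its 86-base windows occur in another gene, mostly Slc22a30, so its counts may be too low. The same holds for Slc22a30 (27.1%), Slc22a29 (12.6%) and Slc22a27 (12.5%).

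Of the other SLC22 genes, Slc22a15, known as a carrier of zwitterions, was lower at 16 dpc than in both earlier groups. It had 10.3, 9.503 and 7.97 CPM in the NP mice, 9.95, 8.51 and 8.01 CPM at 8 dpc and 2.58, 2.75 and 3.29 CPM at 16 dpc with AAV8-null. The log2 fold change was -1.69 ± 0.32 against NP (edgeR adjusted p = 0.00717) and -1.62 ± 0.32 against 8 dpc (edgeR adjusted p = 0.0101; SE, n = 3 and 3 each), without overlap, and both calls held in every alternative and with each mouse left out. With AAV8-p21 it had 10.1, 5.88 and 6.58 CPM at 8 dpc and 2.13, 2.40 and 5.46 CPM at 16 dpc, also without overlap, and this difference did not pass (edgeR adjusted p = 0.0598). DESeq2 on all libraries (adjusted p = 0.0168) and limma voom (adjusted p = 0.00193) called this difference.

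Slc22a18 had 104, 56.3 and 72.0 CPM in the NP mice, 78.5, 80.8 and 55.3 CPM at 8 dpc and 73.3, 43.2 and 37.9 CPM at 16 dpc with AAV8-null. In the AAV8-p21 mice it had 79.9, 73.6 and 97.3 CPM at 8 dpc and 119, 91.9 and 57.5 CPM at 16 dpc. Slc22a23 had 71.5, 110 and 92.3 CPM in the NP mice, 64.8, 80.7 and 111 CPM at 8 dpc and 128, 144 and 103 CPM at 16 dpc with AAV8-null, and 105, 95.1 and 69.3 CPM at 8 dpc and 176, 186 and 104 CPM at 16 dpc with AAV8-p21. Neither gene passed in any comparison, and their groups overlapped at every stage.

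Among the ABCB genes none passed in any comparison. Abcb4, which moves phosphatidylcholine into bile, had 292, 529 and 432 CPM in the NP mice, 267, 189 and 500 CPM at 8 dpc and 310, 412 and 348 CPM at 16 dpc with AAV8-null. Under AAV8-p21 the levels were 152, 232 and 290 CPM at 8 dpc and 136, 225 and 454 CPM at 16 dpc. The groups overlapped in each comparison, and the 16 dpc AAV8-p21 mice covered a 3.33-fold range. The drug efflux pump genes Abcb1a and Abcb1b had group means of at most 5.78 and 0.835 CPM. The organelle genes Abcb6, Abcb8, Abcb9 and Abcb10 had within-group SDs of 0.161 to 0.467 on the log2 scale, and the mitochondrial Abcb8 stayed between 18.03 and 26.9 CPM in all libraries. Of these, Abcb6 shares 63.5% of its windows with the gene model Gm29253.

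Abcc3, the basolateral pump for bile acid and glucuronide conjugates, had the largest fall with AAV8-null among those of the 38 genes with a mean above 10 CPM. With AAV8-p21, Slc22a27 fell further (log2 fold change -2.15 for 16 against 8 dpc). It had 223, 348 and 354 CPM in the NP mice, 220, 157 and 231 CPM at 8 dpc and 14.7, 20.6 and 32.4 CPM at 16 dpc with AAV8-null. The AAV8-p21 mice had 147, 160 and 136 CPM at 8 dpc and 15.2, 29.7 and 69.4 CPM at 16 dpc. No 16 dpc mouse reached the lowest mouse of the earlier groups, whichever the virus. With AAV8-null the log2 fold change was -3.77 ± 0.47 against NP (edgeR adjusted p = 3.64e-04) and -3.17 ± 0.46 against 8 dpc (edgeR adjusted p = 0.00107), and with AAV8-p21 it was -1.96 ± 0.43 against 8 dpc (edgeR adjusted p = 0.0234; SE, n = 3 and 3 each). Both AAV8-null calls held in every alternative and with each mouse left out, and the AAV8-p21 call was lost with 8 dpc mouse 1 or 2 or 16 dpc mouse a or b left out.

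Abcc2, the counterpart of Abcc3 on the bile side, had 301, 576 and 654 CPM in the NP mice, 427, 329 and 525 CPM at 8 dpc and 358, 482 and 333 CPM at 16 dpc with AAV8-null. With AAV8-p21 it had 331, 350 and 273 CPM at 8 dpc and 411, 525 and 558 CPM at 16 dpc. The AAV8-null groups overlapped, and the AAV8-p21 groups did not, with a log2 fold change of 0.65 ± 0.28 (SE, n = 3 and 3) that did not pass (edgeR adjusted p = 0.251). Per kilobase, mean levels of Abcc2 and Abcc3 were 59.8 and 54.1 CPM in NP mice and 45.9 and 3.96 CPM at 16 dpc with AAV8-null. Abcc10 (Mrp7) had 6.93, 9.75 and 9.23 CPM in the NP mice, 6.52, 6.49 and 9.62 CPM at 8 dpc and 3.83, 3.75 and 5.34 CPM at 16 dpc with AAV8-null, and 6.12, 4.34 and 6.72 CPM at 8 dpc and 3.66, 5.09 and 5.10 CPM at 16 dpc with AAV8-p21. It was lower at 16 dpc than in NP mice without overlap, with a log2 fold change of -1.003 ± 0.26 (SE, n = 3 and 3, edgeR adjusted p = 0.0308), and the call was lost with NP mouse 2 or 3 or 16 dpc mouse 1 or 2 left out. Abcc1, Abcc4, Abcc5, Abcc6 and the sulfonylurea receptor gene Abcc9 passed in no comparison of edgeR's test. Nearest to the threshold were Abcc9, with a log2 fold change of 0.86 ± 0.25 for 16 against 8 dpc with AAV8-null (SE, n = 3 and 3, edgeR adjusted p = 0.0530), and Abcc6, which releases ATP from hepatocytes, with -0.80 ± 0.23 for the same comparison (SE, n = 3 and 3, edgeR adjusted p = 0.0548). Abcc6 had means of 111 ± 6.68 CPM in NP mice and 63.7 ± 12.8 CPM at 16 dpc with AAV8-null (SD, n = 3 each, edgeR adjusted p = 0.0584). DESeq2 on all libraries (adjusted p = 0.02185) and limma voom (adjusted p = 0.00571) called Abcc6 lower at 16 dpc than in NP mice. Both also called it lower than at 8 dpc (DESeq2 adjusted p = 0.0181, limma voom 0.00436). Abcc9 was called higher at 16 than at 8 dpc by both (DESeq2 adjusted p = 0.0206, limma voom 0.0293).

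Abcg2 (Bcrp), the bile-side pump for urate, porphyrins and many drugs, rose at 16 dpc with both viruses. It had 31.7, 34.5 and 32.2 CPM in the NP mice, 30.1, 27.4 and 40.1 CPM at 8 dpc and 43.1, 70.9 and 57.9 CPM at 16 dpc with AAV8-null. In the AAV8-p21 mice it had 27.2, 35.4 and 28.2 CPM at 8 dpc and 47.5, 50.4 and 70.2 CPM at 16 dpc. All 16 dpc mice lay above all earlier mice. The log2 fold change was 0.80 ± 0.22 against NP (edgeR adjusted p = 0.0421) and 0.82 ± 0.22 against 8 dpc (edgeR adjusted p = 0.0392) with AAV8-null, and 0.89 ± 0.22 with AAV8-p21 (edgeR adjusted p = 0.0398; SE, n = 3 and 3 each). With total counts as the scale these became 0.12, 0.10 and 0.33 and no longer passed, so Abcg2 was higher relative to the typical gene only. The call against NP was lost with upper quartiles as the scale too, and both AAV8-null calls were lost with the replicate block. The calls were also lost with any NP mouse, 8 dpc AAV8-null mouse 1 or 2, 16 dpc AAV8-null mouse 2 or 3, or any AAV8-p21 mouse left out of the comparison it enters. Abcg3 had 2.01, 2.62 and 3.29 CPM in the NP mice, 3.90, 4.23 and 1.87 CPM at 8 dpc and 1.52, 0.4999 and 0.890 CPM at 16 dpc with AAV8-null, and 4.84, 3.595 and 2.87 CPM at 8 dpc and 2.90, 2.91 and 1.82 CPM at 16 dpc with AAV8-p21. With AAV8-null it was lower at 16 than at 8 dpc by a log2 fold change of -1.78 ± 0.42 (SE, n = 3 and 3, edgeR adjusted p = 0.0237), a call lost with 8 dpc mouse 1 or 2 or 16 dpc mouse 2 or 3 left out. The cholesterol transporter gene Abcg1 had group means of 4.67 to 6.85 CPM and passed in no comparison.

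The 4 genes that passed between 8 and 16 dpc with AAV8-p21 (Abcc3 and Slc22a27 lower, Slc22a3 and Abcg2 higher) also passed with AAV8-null, where 7 did. Of all tested genes 2.38% passed with both viruses, which is 71.8% of those that passed with AAV8-p21 and 34.7% of those that passed with AAV8-null. These stage comparisons share no mouse. The sign was the same in 29 of the 38 genes (76.3%), beside 75.6% of all tested genes, so the share was near that of the genome. Because these genes moved with both viruses, the 250 bases before their RefSeq starts (GRCm38.p6) are given for the 3 of them with an entry, 5′ to 3′ on the gene's own strand, with matches to 7 searched motifs in capitals. Slc22a27 lies on chr19:7966028-7966277 (minus strand), Slc22a3 on chr17:12507705-12507954 (minus strand) and Abcg2 on chr6:58584283-58584532 (plus strand).
Slc22a27: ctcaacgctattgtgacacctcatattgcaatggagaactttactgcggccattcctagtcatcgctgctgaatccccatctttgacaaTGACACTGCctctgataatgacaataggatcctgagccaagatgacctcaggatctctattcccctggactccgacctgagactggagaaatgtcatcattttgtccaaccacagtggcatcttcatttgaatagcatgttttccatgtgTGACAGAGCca
Slc22a3: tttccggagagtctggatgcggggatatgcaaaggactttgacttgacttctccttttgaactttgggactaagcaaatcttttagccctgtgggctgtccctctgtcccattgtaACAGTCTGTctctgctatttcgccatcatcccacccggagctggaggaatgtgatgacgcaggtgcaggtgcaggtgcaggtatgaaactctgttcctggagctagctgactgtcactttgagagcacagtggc
Abcg2: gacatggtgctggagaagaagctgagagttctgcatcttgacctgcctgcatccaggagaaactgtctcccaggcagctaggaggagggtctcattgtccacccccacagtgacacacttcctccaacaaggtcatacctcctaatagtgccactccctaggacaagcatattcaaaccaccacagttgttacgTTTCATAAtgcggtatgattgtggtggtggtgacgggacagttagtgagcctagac

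The capitals mark TGACNNNGC (antioxidant response element) in Slc22a27, 161 and 11 bases before the start, ACANNNTGT (glucocorticoid response element) in Slc22a3, 134 bases before, and TTATGNAA (D-box, read on the opposite strand) in Abcg2, 56 bases before. Both strands were searched, and no motif contains another. Of 27025 promoters of the same length, 10.1%, 5.91% and 3.23% hold these letters. Among the 29 of the 38 genes with an entry, 4, 5 and 1 hold them. The other motifs searched were TTCNNNGAA (GAS element) in 3 of the 29 and 7.18% of all promoters, CACGTG (E-box) in 2 and 6.05%, GCGTG (xenobiotic response element) in 6 and 28.2%, and the DR1 element, a direct repeat, in 0 and 0.037%. Matching letters are a description and not a bound site.

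**Figure D3:**
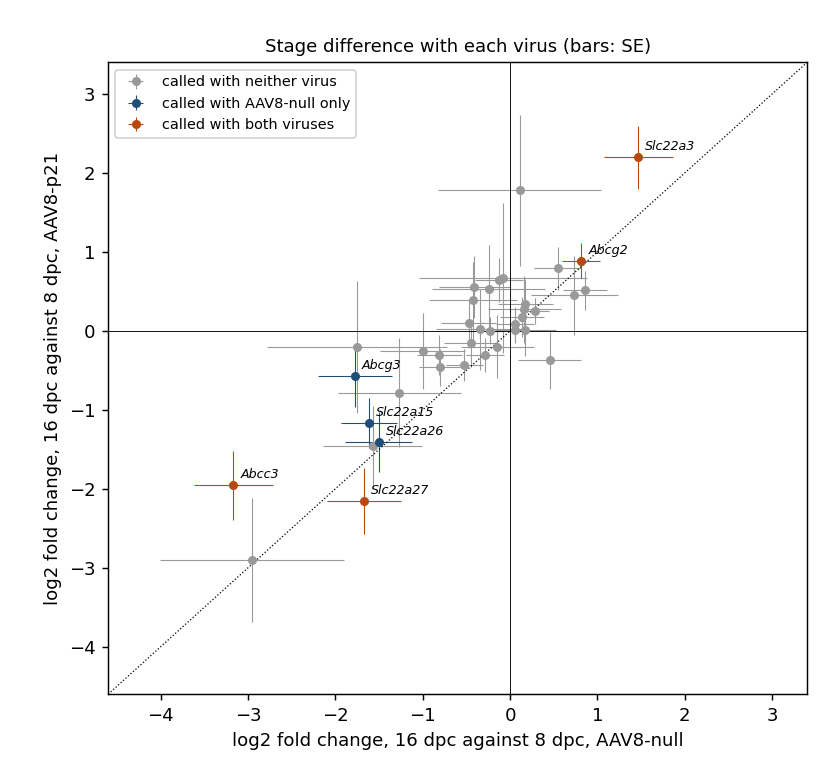
Log2 fold change of 16 against 8 dpc for the 38 genes with AAV8-null (x axis) and AAV8-p21 (y axis); bars are SE, the dotted line marks equal values and colours mark the calls. The 4 genes called with both viruses lie on the same side of 0 on both axes.

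AAV8-p21 against AAV8-null gave no call among the 38 genes at either stage. In edgeR's test 0.0246% of all tested genes passed at 8 dpc and 0.0739% at 16 dpc. At an unadjusted p under 0.05 there were 2 of the 38 genes at 8 dpc (5.18% of all genes) and 3 at 16 dpc (9.77% of all genes). DESeq2 on all libraries and limma voom also called none, where they called 0.204% and 0.863% of all tested genes at 8 dpc. At 16 dpc they called 1.06% and 0.961% of all tested genes. DESeq2 on the 8 dpc groups alone called Slc22a27. At 16 dpc 32 of the 38 genes had a log2 fold change above 0, with a median of 0.35, while 50% of all tested genes were above 0. At 8 dpc 23 of the 38 were above 0 (49.6% of all genes), with a median of 0.07. The genes were measured in the same mice and are not independent, so this count is a description.

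Without overlap between the viruses were 5 of the 38 genes at 8 dpc (all higher with AAV8-p21, beside 5.52% of all genes), among them Slc22a27, Slc22a29, Abcb10 and Abcc9. At 16 dpc 4 were without overlap (also all higher, beside 6.65% of all genes), namely Slc22a17, Abcb9, Abcc5 and Abcg3. Slc22a17 had 8 to 14 counts per library against 1 to 7, and it reached the minimum of 10 counts in AAV8-p21 libraries alone, so the rule that chose the genes favoured that direction and its separation is a description. No gene was on both lists. Slc22a27 at 8 dpc had a log2 fold change of 1.16 ± 0.40 (SE, n = 3 and 3, edgeR adjusted p = 0.726), and Abcg3 at 16 dpc one of 1.39 ± 0.43 (SE, n = 3 and 3, edgeR adjusted p = 0.278). Abcc3 was at 15.2 to 69.4 CPM at 16 dpc with AAV8-p21, overlapping the AAV8-null mice, and its stage differences did not pass as unequal between the viruses (interaction 1.21 ± 0.60 on the log2 scale, edgeR adjusted p = 1). The interaction of virus and stage gave 0 calls among the 38 genes (0% of all tested genes), and none of the 38 was under an unadjusted p of 0.05 (3.09% of all genes). DESeq2 and limma voom gave none either. The interaction was above 0 in 29 of the 38 genes (50.3% of all tested genes), with a median of 0.24 beside 0.003 over all tested genes. These genes are not independent, so this count is a description. No difference in stage response between the viruses was detected for any single gene.

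**Figure D4:**
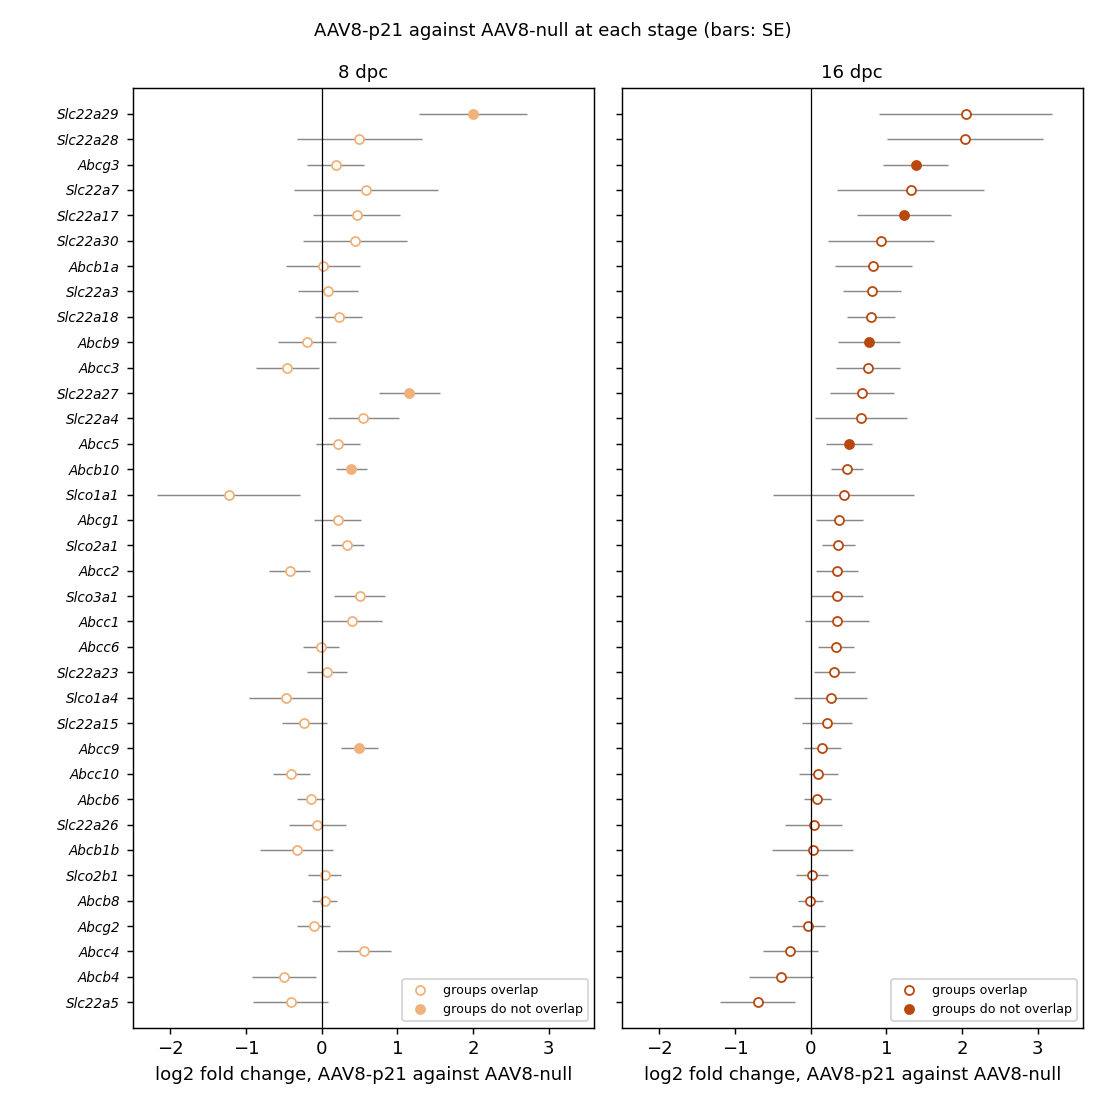
Log2 fold change of AAV8-p21 against AAV8-null at 8 dpc (left) and 16 dpc (right) for 36 of the 38 genes, ordered by the 16 dpc value; bars are SE and filled points mark groups without overlap. At 16 dpc 31 of the 36 lie above 0, and none passed the test.

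Several genes had a wide spread between mice of a group. The pooled within-group SD on the log2 scale was 1.70 for Slc22a7, 1.65 for the organic anion uptake gene Slco1a1, 1.09 for Slc22a28 and 1.07 for Slc22a30, each above that of at least 97.9% of all tested genes. The median over the 38 genes was 0.467, beside 0.348 over all tested genes. Slc22a7, a transporter of cyclic nucleotides and organic anions, had 11.8, 2.01 and 8.25 CPM in the NP mice, 24.2, 32.2 and 1.196 CPM at 8 dpc and 31.6, 19.7 and 3.11 CPM at 16 dpc with AAV8-null. Under AAV8-p21 the levels were 18.7, 41.5 and 25.8 CPM at 8 dpc and 72.1, 55.8 and 8.37 CPM at 16 dpc. The lowest mouse for Slc22a7 was also the lowest for Slc22a30 in all 5 groups, and for Slco1a1, Slc22a18, Slc22a26, Slc22a27, Abcg1 and, with a tie in NP mice, Slc22a28 in 4 of the 5. The same mouse was the highest for Slco1a4, Abcc9 and Abcc10 in 4 of the 5 groups. It was the mouse that stood apart over all genes at 8 dpc with AAV8-null and at 16 dpc with AAV8-p21, but not in NP mice or at 8 dpc with AAV8-p21, and the part of these mice in the orderings was not tested. Slco1a1 had 1.18, 41.8 and 34.3 CPM in the 8 dpc AAV8-p21 mice, a 35.3-fold range. These orderings were noticed in the data and were not tested.

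**Figure D5:**
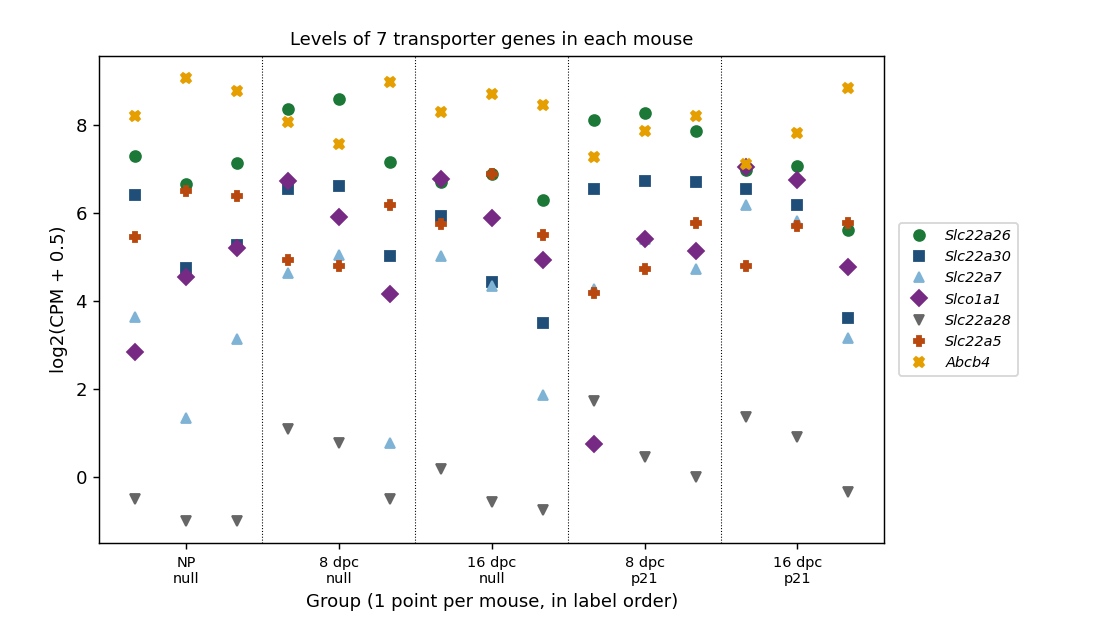
Log2(CPM + 0.5) of 7 genes in each of the 15 mice, 1 point per mouse and gene. The mice lowest for Slc22a7 are also lowest for Slc22a30 in every group, as at 8 dpc with AAV8-null, where mouse 3 has 1.196 and 31.8 CPM.

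The genes were also set against the expression of clock genes, an analysis added after the spread within groups had been seen. In each mouse the 6 genes Dbp, Nr1d1, Ciart, Per3, Nr1d2 and Tef were averaged on the log2 scale and subtracted from the average of Clock, Arntl and Npas2, and within-group deviations of each gene were compared with it by an exact permutation within groups (7776 arrangements, smallest p 0.000129, two-sided). None of the 38 genes and 0% of 12163 genes passed after Benjamini-Hochberg adjustment, and 4 of the 38 (10.5%) had an unadjusted p under 0.05, beside 11.1% of these genes. The nearest was Slc22a5, with r = -0.78 (permutation p = 0.0107) and rho = -0.71 (permutation p = 0.019) over 15 mice, an adjusted p of 0.349, and r = -0.59 without the 2 mice farthest from the median. With AAV8-null the clock-gene difference itself was -4.64 to 0.512 in NP mice (median -4.48), -1.23 to 1.49 at 8 dpc (median 1.37) and -1.80 to 2.27 at 16 dpc (median 1.87). With AAV8-p21 it was -3.18 to 3.06 at 8 dpc (median 2.70) and -5.28 to -2.84 at 16 dpc (median -4.86). Its part in the stage and virus comparisons was not tested.

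Genes that work beside these transporters were counted from lists written by hand. Of 15 other liver transporters tested, 1 was higher and 3 lower at 16 dpc than in NP mice with AAV8-null. The higher one was the cation transporter Slc22a2, at 0 in all NP and 8 dpc mice and at 0.890 to 7.67 CPM at 16 dpc. The lower ones were the uptake transporters Slco1b2 (log2 fold change -1.69 ± 0.31, edgeR adjusted p = 0.00492), Slc10a1 (-1.22 ± 0.18, edgeR adjusted p = 0.00121) and Slc29a1 (-1.16 ± 0.31, edgeR adjusted p = 0.0361). Of 19 nuclear receptors and other regulators, 2 were higher and 0 lower, namely the growth hormone receptor Ghr (3.21 ± 0.35) and the prolactin receptor Prlr (3.23 ± 0.34). Of 13 NRF2 targets, 0 were higher and 1 lower (Gsta4), and of 13 CAR and PXR targets, 2 were higher (Cyp3a13 and Aldh1a7) and 3 lower (Cyp2b9, Cyp2b13 and Cyp3a11), where 3.71% of all tested genes were higher and 2.82% lower. Their median log2 fold changes were -0.23, -0.04, -0.48 and 0.001, beside -0.03 over all genes. None of these lists had a call between the viruses at either stage. Of the marker lists, hepatocyte genes had 2 of 10 higher and 3 lower at 16 dpc than in NP mice with AAV8-null, endothelial genes 1 of 10 higher, stellate cell genes 1 of 10 lower and erythroid genes 2 of 5 higher. Macrophage, cholangiocyte, lymphocyte and pancreas genes had none, and no marker list had a call between the viruses.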

How the data were processed

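The deposited values are raw counts per protein-coding gene, which the authors made from single-end reads with cutadapt 1.14 (trimming), HISAT2 2.1.0 (alignment, mm10) and HTSeq 0.12.4 (counting). Only uniquely mapped reads entered the counts. The strand setting and the treatment of overlapping genes are not given in the sources used here. Libraries came from 200 ng of total RNA with a stranded kit.

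Columns were matched to samples by name. The 3 columns of AAV8-p21 at 16 dpc carry other numbers than the labels and were used as mice a, b and c of their group. The counts were tested with edgeR 4.0.16 in R 4.3.3 (TMM factors, filterByExpr with a minimum count of 10, 12172 genes, 1 model of 15 libraries without a block, Benjamini-Hochberg adjustment over all genes), in 7 comparisons. A gene is called at an adjusted p below 0.05. The SE of a log2 fold change is its absolute value divided by the square root of edgeR's F statistic. It thus uses the spread fitted over all 15 libraries, and n gives the mice compared. Scripts were tested on simulated data. Alternatives were DESeq2's size factors, upper quartiles or total counts as scale, no filter or 10 counts in every library, DESeq2 1.42.0, limma 3.58.1 voom with sample weights, the compared groups alone, a log2 fold change beyond 1, a replicate block and each mouse left out. After the data were seen, a clock-gene analysis with 3 alternatives and a fit of 12 libraries were added.

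The genes, lists and 7 motifs were chosen with earlier results of these data known. Values in every mouse are given, by rule, for genes called in any comparison, the 10 highest per kilobase and those apart between viruses at both stages (0 genes). Other genes named were chosen after their values were seen. Individual results of 2 of the 38 genes are not reported here, although the counts and medians include them. Exon lengths and shared windows come from GENCODE M21 on GRCm38. Marker lists of hepatocytes, endothelial cells, macrophages, stellate cells, cholangiocytes, lymphocytes, erythroid cells, kidney, pancreas and placenta were summed. The laser capture samples were not analysed here. Depth covers counting error only, and the 3 mice of a group set the precision.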

Additional observations from a re-analysis of the deposited data

How the results depend on the processing

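The 19 called differences gave 331 values under the alternatives, of which 257 kept their call, 74 no longer passed and 0 changed sign. For 16 dpc against NP, 16 against 8 dpc with AAV8-null and 16 against 8 dpc with AAV8-p21, the counts of 8, 7 and 4 called genes became 22, 21 and 14 with total counts as the scale, 4, 4 and 2 with edgeR on the compared groups alone, and for the latter 2 comparisons 11 and 7 with DESeq2 on all libraries and 11 and 8 with limma voom. Of all tested genes these settings called 50.5%, 53.5% and 35.5%, 3.49%, 2.93% and 3.31%, 10.2% and 6.16%, and 14% and 14.9%, beside 6.52%, 6.87% and 3.32%. Limma voom also called 10 genes for 8 dpc against NP (15.2% of all genes), and DESeq2 on the compared groups alone 1 gene for the viruses at 8 dpc (0.625%), where edgeR called 0. The cause was not tested, except that the compared groups alone leave fewer mice to estimate the spread. With 1 mouse left out in turn the counts were 4 to 6, 2 to 9 and 2 to 4, and the other 4 comparisons stayed at 0. The lowest counts came without NP mouse 2 or 3 or 16 dpc mouse 2 or 3, without 8 dpc mouse 1 or 2 or 16 dpc mouse 2 or 3, and without 8 dpc mouse 1 or 2 or 16 dpc mouse a or b. With the replicate block, in the 12 libraries that carry a number, the first 2 counts were 7 and 7, beside 8 and 7 without it, and Abcg2 lost both calls while Slc22a29 gained one for 16 against 8 dpc (5.44% and 5.43% of all genes called, beside 6.12% and 6.25%). Same-numbered mice did not deviate together in every pair (correlations of -0.53 to 0.45), so the numbers were not taken to pair them. The clock-gene analysis gave 0 genes in each of its 3 alternatives. Without the 2 mice farthest from the median there were 864 arrangements and a smallest permutation p of 0.00116. A gene could then pass adjustment only if many others also reached that p, so this 0 says little. The SE of the log2 fold change for 16 against 8 dpc with AAV8-null was 0.96 for Slc22a7 and 1.03 for Slc22a28, beside 0.32 for Slc22a15.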
